A study of Mus musculus with 10 samples.

Results

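The respiratory chain of mouse microglia was examined through the 105 genes whose symbols name its parts, out of 28247 genes measured by RNA sequencing. Members were protein-coding genes named as subunits or assembly factors of complex I (Nduf), subunits of succinate dehydrogenase (Sdha to Sdhd), subunits of the cytochrome bc1 complex (Uqcr, Cyc1 and mt-Cytb), cytochrome c (Cycs), cytochrome c oxidase (Cox4 to Cox8 and mt-Co) and ATP synthase (Atp5 and mt-Atp), with the 7 complex I subunits of mitochondrial DNA (mt-Nd). Of the 105, 92 are coded in the nucleus and 13 in mitochondrial DNA. The rule itself reads gene names and no measured value, although the pathway was picked with earlier results of these data known.

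Primary microglia, labelled wild type, had first been treated with amyloid β oligomers, small aggregates of the peptide found in the plaques of Alzheimer's disease. The 5 mimic libraries were from cells then transfected with a miR-378a-3p mimic, a synthetic copy of that microRNA, and the 5 control libraries were from cells transfected with a negative control mimic. The oligomers were thus common to both groups. The labels give no strain, age, dose or duration, nor do they say whether replicates were separate cultures, so p-values reflect only how far these libraries scatter, which may be technical.

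The respiratory chain passes electrons from NADH through complex I, or from succinate through complex II, to ubiquinone, on through complex III and cytochrome c to complex IV, where oxygen is reduced. Complexes I, III and IV pump protons across the inner mitochondrial membrane, and complex V uses the returning flow to make ATP. Mitochondrial DNA codes for a few core subunits of complexes I, III, IV and V and for none of complex II, its genes are transcribed as long precursors that are then cut, and all other subunits are made from nuclear genes. In microglia and macrophages the balance between this pathway and glycolysis is known to shift with activation.

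The libraries held 48707985 to 65069571 counts. The level of a gene is given as FPKM, the authors' fragment number relative to gene length and library size, and fold changes are log2 values, mimic over control, from edgeR's quasi-likelihood test on the deposited counts with TMM scaling. A gene was called changed where its p, adjusted by Benjamini and Hochberg over the 15916 genes tested, was under 0.05. Values after ± are SDs over 5 libraries, and coordinates are of GRCm38. Since FPKM is scaled to library totals and TMM is not, fold changes from library totals ran higher by a median of 0.077 over all genes, and a small negative fold change can stand beside nearly equal FPKM.

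The label was compared with 10 microglia markers, of which 8 reached 1 FPKM in at least 1 library. Their summed level was 239 to 258 FPKM in mimic libraries and 376 to 408 FPKM in control libraries. Cx3cr1, the fractalkine receptor, stood at 0.377 to 0.657 FPKM with the mimic and 26.3 to 30.4 FPKM in controls. Tmem119 and C1qa stayed under 1 FPKM in all 10 libraries. Marker lists of astrocytes, neurons, oligodendrocytes, endothelium, fibroblasts and mural cells, and lymphocytes summed to at most 0.787 FPKM in any library, and no gene of theirs that was present reached 1 FPKM. Present in the data were 4 of 6 listed genes for astrocytes, 4 of 6 for neurons and 3 of 5 for oligodendrocytes. For endothelium 3 of 4 were present, for fibroblasts and mural cells 6 of 6 and for lymphocytes 3 of 4. The microglia markers moved with the groups. Their part in the results was not tested, and in bulk RNA fewer cells of a type and less RNA per cell cannot be told apart.

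Most transcripts of mitochondrial DNA were higher with the mimic, and more of the nuclear ones were lower than higher. Of the 102 members tested, 24 were higher with the mimic and 45 lower, and 33 did not pass; 11 of the 24 higher ones were coded in mitochondrial DNA, which make up 13 of the 102. Among all genes tested, 31.7% were called higher and 31.5% lower, or 63.2% in either direction. The members' shares were 23.5% higher and 44.1% lower. With library totals in place of TMM the counts were 28 higher and 31 lower, against 37.3% and 26.5% of all genes. Of the called members 34.8% were higher with TMM, against 50.2% of all called genes. With totals these shares were 47.5% of the called members and 58.4% of all called genes. The 3 members not tested were Cox4i2, Cox6b2 and Cox8b, isoforms of complex IV subunits best known from other tissues, each with at most 15 counts in any library.

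The 13 mitochondrial members took 3.38 to 3.64% of all counts in mimic libraries and 2.57 to 2.87% in control libraries. Their FPKM values summed to 31742 to 34334 with the mimic and 22626 to 25827 in controls, and those of the 92 nuclear members to 4735 to 5021 with the mimic and 4767 to 5128 in controls. The mitochondrial sums were apart between the groups, and the nuclear sums overlapped. The ratio of the 2 sums, which does not depend on how libraries are scaled, was 6.85 ± 0.342 with the mimic and 5.02 ± 0.371 in controls (SD, n = 5 each), with ranges of 6.32 to 7.25 and, in controls, 4.41 to 5.38.

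The rise was uneven along mitochondrial DNA. All 7 mt-Nd genes, which code for the membrane arm of complex I, and mt-Cytb, the cytochrome b of complex III, were 1.76 to 2.11 times as high with the mimic. The ATP synthase genes rose less, and of the 3 complex IV genes mt-Co2 was slightly higher and the others slightly lower. The median log2 fold change was 0.82 over all 13 genes, 0.88 over the 8 genes of complexes I and III and 0.12 over the 5 genes of complexes IV and V, beside -0.0021 over all genes tested. The 13 come from shared precursors, so they are not independent of each other.

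**Figure D1:**
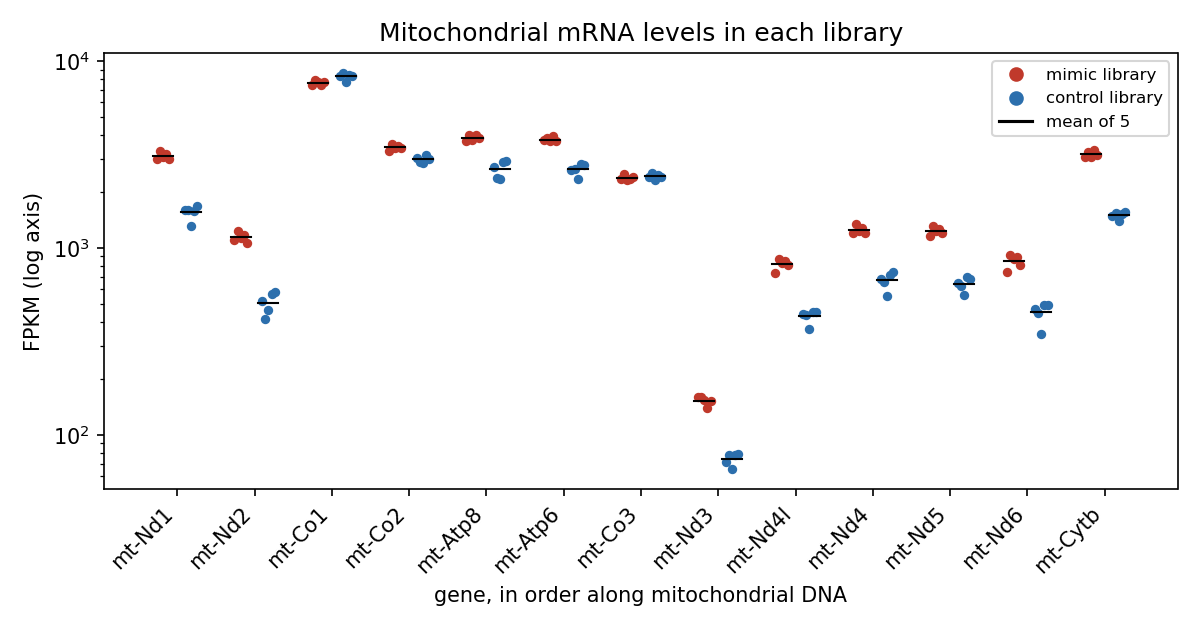
FPKM (log axis) of the 13 protein-coding genes of mitochondrial DNA in each of 5 mimic and 5 control libraries (points), with the mean of 5 as a line, in gene order. The mimic libraries lie above the control libraries for every gene but mt-Co1 and mt-Co3, whose groups overlap.

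Among the mt-Nd genes, mt-Nd2 (MT:3914-4951) showed the largest difference. It had 1107, 1232, 1137, 1171 and 1064 FPKM in the mimic libraries and 519.9, 418, 465, 566 and 578 FPKM in the control libraries. Every mimic library was far above every control library, and the log2 fold change was 1.08 (SE 0.0729, edgeR adjusted p = 4.65e-09). For mt-Nd1 (MT:2751-3707) the mimic libraries read 2992, 3318, 3053, 3182 and 2995 FPKM and the control libraries 1598, 1596, 1304, 1578 and 1685 FPKM. The groups were again well apart, with control replicate 3 the lowest of all, and the log2 fold change was 0.91 (SE 0.0528, edgeR adjusted p = 7.71e-10).

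The other mt-Nd genes gave like values. Their means were 153 ± 8.60 FPKM with the mimic and 74.1 ± 5.66 FPKM in controls for mt-Nd3, 818 ± 53.2 and, in controls, 432 ± 35.2 FPKM for mt-Nd4l, 1252 ± 55.9 and, in controls, 671 ± 72.3 FPKM for mt-Nd4, and 1233 ± 58.0 and, in controls, 641 ± 54.1 FPKM for mt-Nd5 (SD, n = 5 each). No control library reached a mimic library for any of them, and the log2 fold changes ran from 0.81 for mt-Nd4 to 0.95 for mt-Nd3. The only mitochondrial member on the other strand, mt-Nd6 (MT:13552-14070), averaged 848 ± 70.3 FPKM with the mimic and 452 ± 62.5 FPKM in controls (SD, n = 5 each), a log2 fold change of 0.82. It shares 14 bases with mt-Nd5, and whether strand was used in counting was not stated, so that reads of its antisense partner cannot be told apart from its own.

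Cytochrome b carries the haems that move electrons within complex III. Its gene mt-Cytb (MT:14145-15288) had 3079.8, 3274, 3053, 3352 and 3144 FPKM in the mimic libraries and 1488, 1532, 1385, 1527 and 1565 FPKM in the control libraries. The groups were far apart, and both were tight. The log2 fold change was 1.0 (SE 0.0349, edgeR adjusted p = 3.19e-12).

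The 3 mitochondrial genes of complex IV code for its catalytic core, and mt-Co1 was the most abundant member of all. It had 7452, 7911, 7691, 7432 and 7760.5 FPKM in the mimic libraries and 8271, 8647, 7747, 8431 and 8305 FPKM in the control libraries. Control replicate 3 fell among the mimic libraries and the other 4 controls lay above them, and the log2 fold change was -0.20 (SE 0.0318, edgeR adjusted p = 4.14e-05), or -0.13 with library totals. Levels of mt-Co3 overlapped, at 2325, 2494, 2319.7, 2332 and 2382 FPKM with the mimic and 2392, 2523, 2312, 2455 and 2391 FPKM in controls, and its log2 fold change of -0.12 (edgeR adjusted p = 0.00424) was -0.04 with library totals (adjusted p = 0.267). For mt-Co2 the mimic libraries were all higher, at 3297, 3607, 3427, 3498 and 3413 FPKM against 3039, 2894, 2840.3, 3159 and 2991 FPKM in controls, giving 0.12 on the log2 scale (SE 0.0339, edgeR adjusted p = 0.00654).

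Both mitochondrial genes of ATP synthase, whose products belong to the membrane part through which protons flow, lay between the mt-Nd and the mt-Co genes. The mimic libraries had 3759, 3868, 3715, 3949 and 3723 FPKM of mt-Atp6 and the control libraries 2615, 2655, 2343, 2796 and 2785 FPKM. The groups were apart, and the log2 fold change stood at 0.44 (SE 0.0396, edgeR adjusted p = 1.22e-07). Its neighbour mt-Atp8 averaged 3884 ± 147 FPKM with the mimic and 2641 ± 273 FPKM in controls (SD, n = 5 each), a log2 fold change of 0.47 (SE 0.0550). The 2 values cannot be fully separated, because the genes lie on 1 transcript and share 43 bases at MT:7927-7969 (GRCm38, forward strand), which are 21.1% of the 204 bases of mt-Atp8 and 6.31% of the 681 bases of mt-Atp6. They are printed because reads from them fit both genes; the capitals mark the start codon of mt-Atp6 and, at the end, the stop codon of mt-Atp8.
mt-Atp8 and mt-Atp6, shared bases: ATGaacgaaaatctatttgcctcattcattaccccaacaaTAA

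**Figure D2:**
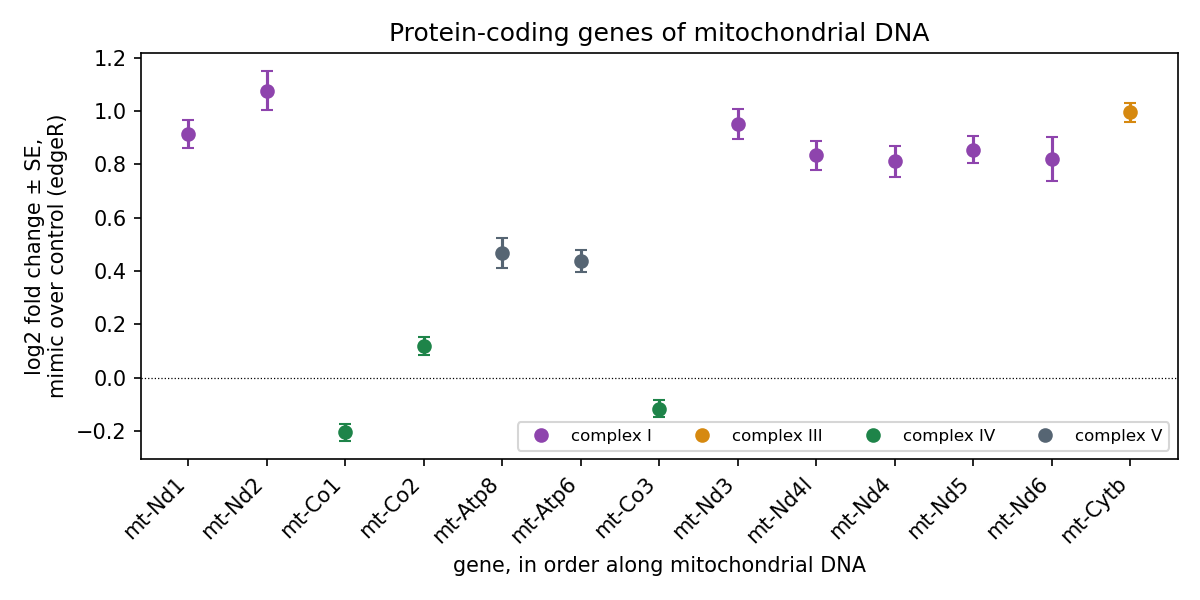
The log2 fold change of each protein-coding gene of mitochondrial DNA (edgeR, mimic over control) with its standard error, in gene order and coloured by complex. The 8 genes of complexes I and III lie between 0.81 and 1.08, mt-Atp8 and mt-Atp6 at 0.47 and 0.44, and the 3 genes of complex IV between -0.20 and 0.12.

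Ratios between mitochondrial genes within a library show the same imbalance with no scaling between libraries. The summed FPKM of the 7 mt-Nd genes over that of the 3 mt-Co genes was 0.608 to 0.662 with the mimic and 0.284 to 0.345 in controls. The ratio of mt-Cytb to mt-Co1 was 0.397 to 0.451 with the mimic and 0.177 to 0.188 in controls, and that of mt-Nd3 to its upstream neighbour mt-Co3 was 0.0593 to 0.0682 with the mimic and 0.0283 to 0.0329 in controls. The groups did not overlap in any of the 3. The share of mt-Co1 in the 13 genes' FPKM was 22.3 to 23.9% with the mimic and 32.4 to 34.7% in controls.

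The ribosomal RNAs of mitochondria were also in the table. The large one, mt-Rnr2, had 127 to 146 FPKM with the mimic and 55.5 to 81.8 FPKM in controls, a log2 fold change of 0.85. The small one, mt-Rnr1, averaged 302 ± 17.2 FPKM with the mimic and 288 ± 38.1 FPKM in controls and did not pass (log2 fold change -0.02, edgeR adjusted p = 0.802). All these levels are of RNA kept by an oligo(dT) selection, per the labels' protocols, and copies of mitochondrial DNA in the nuclear genome can share reads with the mitochondrial genes. Control replicate 3 was the lowest control library for 12 of the 13 genes, and without it the median of the 13 was 0.74.

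The nuclear members moved less. Of 89 tested, 13 were higher (14.6%), 43 lower (48.3%) and 33 did not pass. The median log2 fold change was -0.11, and 64 of the 89 differed by less than 0.25 on the log2 scale. The counts of each nuclear class below are likewise to be read beside the 31.7% higher and 31.5% lower of all genes tested. With library totals 17 were higher and 30 lower, and the median was -0.037, beside 0.075 over all genes. At 1.5-fold or more, 10 members were higher and 2 lower, against 11.7% and 14.8% of all genes; 8 of the 10 were mitochondrial, and the 2 lower ones were Cox6a2 and Cox7a1. The FPKM ranges of the groups were apart for 47 of the 102 tested members, or 46.1%, against 52.2% of all genes tested. As comparators, the 78 genes for proteins of the mitochondrial ribosome had 27 higher and 26 lower with a median of 0.0092, and the 94 tested genes for proteins of the cytosolic ribosome had 10 higher and 57 lower with a median of -0.18. Genes of short length, as implied by their counts and FPKM, had lower fold changes in general. With all genes split into 5 equal classes of this length, the median was -0.078 in the shortest and 0.060 in the longest. The shortest class holds 53 of the tested members. With offsets for gene length 26 members were higher and 36 lower, against 31.7% and 31.4% of all genes.

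**Figure D3:**
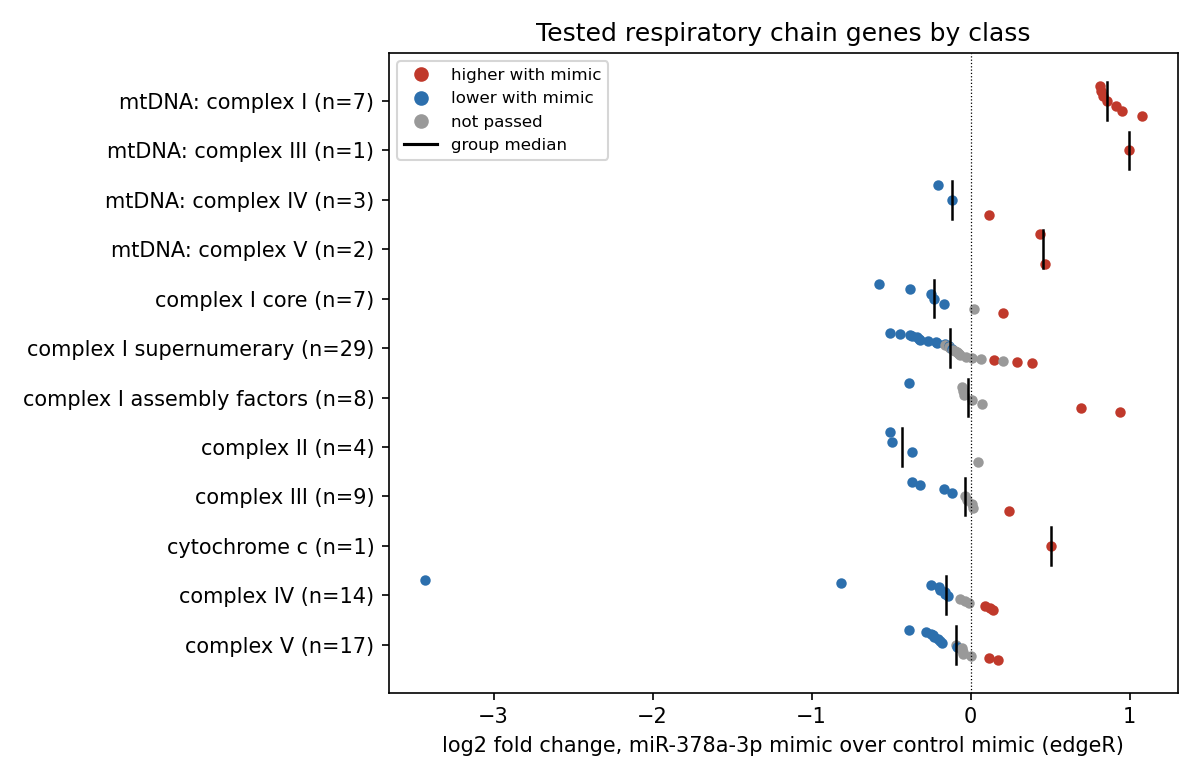
The log2 fold change (edgeR, mimic over control) of each of the 102 tested members by class, mitochondrial classes at the top; red points were higher, blue lower, grey did not pass, and bars are medians. The nuclear classes spread around medians between -0.43 for complex II and -0.018 for complex I assembly factors. The latter median was 0.060 with library totals, beside 0.075 over all genes. Cytochrome c alone stood at 0.50 and Cox6a2 at -3.43.

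Complex I takes electrons from NADH, and of its 36 nuclear subunits 4 were higher (11.1%), 18 lower (50%) and 14 did not pass. Their median was -0.14. The 7 nuclear core subunits, which hold the flavin and the iron-sulfur clusters, counted 1 higher and 5 lower. Ndufs8, an iron-sulfur subunit near the ubiquinone site, had 33.4, 32.2, 31.4, 28.8 and 32.2 FPKM in mimic libraries and 43.7, 46.3, 45.7, 41.6 and 44.1 FPKM in control libraries. All mimic libraries lay below all controls, and the log2 fold change stood at -0.58 (SE 0.0467, edgeR adjusted p = 3.47e-08). Ndufs3 was the core subunit that rose, at 34.7 ± 0.244 FPKM with the mimic and 28.3 ± 1.38 FPKM in controls (SD, n = 5 each), a log2 fold change of 0.20. Ndufs1, Ndufs7 and Ndufv1 were called lower with overlapping groups, and Ndufv2 did not pass.

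The 29 supernumerary subunits, which surround the core, counted 3 higher and 13 lower, with a median of -0.13. The largest falls were in Ndufv3, at 15.8 ± 0.591 FPKM with the mimic and 21.1 ± 1.41 FPKM in controls (log2 fold change -0.51), and in Ndufb2, at 2.03 ± 0.146 and, in controls, 2.60 ± 0.176 FPKM (-0.45). Ndufb10, a subunit of the membrane arm, was the largest rise: it had 52.0, 53.2, 48.4, 47.6 and 46.9 FPKM in mimic libraries and 35.2, 36.8, 37.7, 33.9 and 34.3 FPKM in control libraries. Its groups were apart, and the log2 fold change stood at 0.39 (SE 0.0487, edgeR adjusted p = 4.46e-06). Ndufab1, the acyl carrier protein of mitochondria, stood at 9.22 ± 0.657 FPKM with the mimic and 7.07 ± 0.414 FPKM in controls (log2 fold change 0.29). The call of the third rise, Ndufc1, was lost without mimic replicate 1 or control replicate 1, 2 or 5 (edgeR adjusted p = 0.0750 to 0.13). Ndufb2 overlaps other genes of the table on both strands, which makes its level uncertain.

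Of the 8 Ndufaf genes, whose products help build complex I and leave it, 2 were higher, 1 lower and 5 did not pass. Ndufaf4 (chr4:24898083-24905001) had 4.15, 4.48, 4.45, 4.70 and 4.45 FPKM in mimic libraries and 2.48, 1.96, 1.91, 1.77 and 2.79 FPKM in control libraries. It was the nuclear member with the largest rise among those tested, and its groups were apart (log2 fold change 0.94, SE 0.106, edgeR adjusted p = 1.45e-06). Ndufaf2 averaged 6.09 ± 0.719 FPKM with the mimic and 3.54 ± 0.371 FPKM in controls (SD, n = 5 each), a log2 fold change of 0.69; it overlaps Smim15 on the opposite strand by 4727 bases, so part of its reads may belong to that gene. Ndufaf7, a methyltransferase of complex I assembly, was lower, at 5.71 ± 0.370 FPKM with the mimic and 7.01 ± 0.282 FPKM in controls (log2 fold change -0.38).

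Complex II is succinate dehydrogenase, an enzyme of the citrate cycle as well as of the respiratory chain, and 3 of its 4 subunits fell, with a median of -0.43. Sdha, the flavin subunit that oxidises succinate, had 79.7, 78.5, 85.2, 82.7 and 82.0 FPKM in mimic libraries and 107, 109.6, 111, 106 and 106 FPKM in control libraries. The groups were well apart (log2 fold change -0.50, SE 0.0309, edgeR adjusted p = 1.77e-09). Sdhb, the iron-sulfur subunit, had 39.1, 36.1, 39.6, 36.3 and 36.5 FPKM with the mimic and 52.7, 49.1, 52.5, 47.2 and 48.9 FPKM in controls. It too was lower in every mimic library (log2 fold change -0.51, SE 0.0417, edgeR adjusted p = 4.14e-08).

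The membrane anchors of complex II, which bind ubiquinone, differed from each other. Sdhc averaged 39.8 ± 1.22 FPKM with the mimic and 48.2 ± 1.02 FPKM in controls (SD, n = 5 each), a log2 fold change of -0.37. Sdhd, at 199, 191, 197, 199.9 and 194 FPKM in mimic libraries and 179, 178, 184, 177 and 174 FPKM in control libraries, had higher FPKM in every mimic library. Its log2 fold change was 0.05 and did not pass (edgeR adjusted p = 0.148), whereas with library totals it was 0.13 and passed (adjusted p = 0.000688).

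Among the 9 nuclear subunits of complex III, 1 was higher (11.1%), 4 lower (44.4%) and 4 did not pass. The median of all 10 subunits was -0.029, beside -0.0021 over all genes. Its sign turned with library totals, to 0.049, but it stayed below the 0.075 of all genes. With library totals 3 of the 9 were higher and 2 lower, against 37.3% and 26.5% of all genes. The core proteins Uqcrc1 and Uqcrc2, which face the matrix, fell together. Uqcrc1 averaged 74.0 ± 2.17 FPKM with the mimic and 89.9 ± 1.9 FPKM in controls (log2 fold change -0.37), and Uqcrc2 78.8 ± 3.63 FPKM with the mimic and 92.4 ± 2.06 FPKM in controls (-0.32). Neither gene's groups overlapped. Uqcrh, the hinge protein next to cytochrome c1, rose: 62.2 ± 2.90 FPKM with the mimic against 49.3 ± 2.45 FPKM in controls, or 0.24 on the log2 scale (SE 0.0451, edgeR adjusted p = 0.000217). Cytochrome c1 itself, Cyc1, stood at 90.0 ± 3.01 FPKM with the mimic and 84.2 ± 2.53 FPKM in controls and did not pass (0.01, adjusted p = 0.892); with library totals it did (0.08, adjusted p = 0.0354).

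Cytochrome c carries electrons from complex III to complex IV and, when released into the cytosol, starts the apoptosome. Its gene Cycs (chr6:50562563-50566538) had 41.1, 45.8, 45.7, 45.7 and 43.3 FPKM in mimic libraries and 30.3, 28.9, 28.6, 28.2 and 30.7 FPKM in control libraries. Every mimic library was above every control library. The log2 fold change was 0.50 (SE 0.0368, edgeR adjusted p = 1.08e-08), and Cycs has many processed pseudogenes, with which it may share reads.

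**Figure D4:**
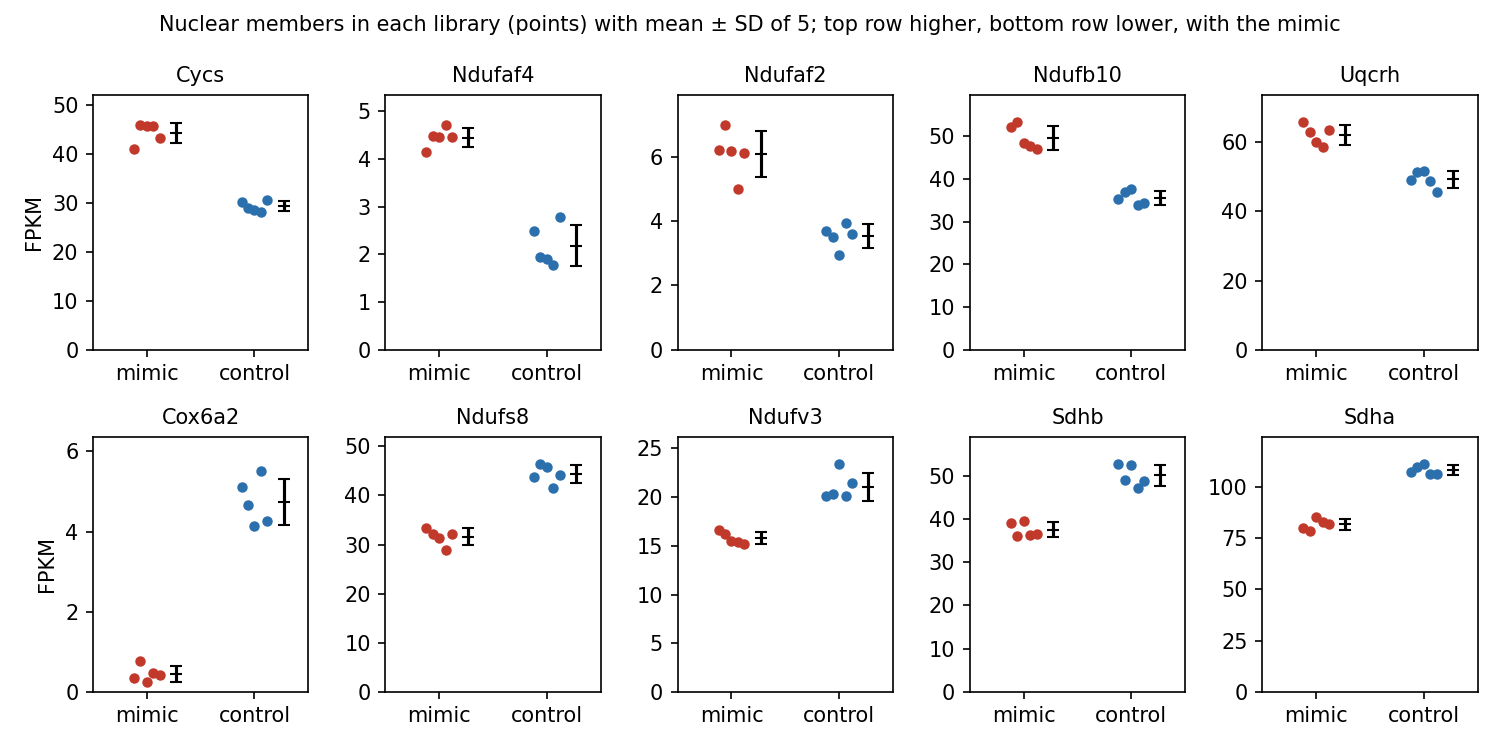
FPKM of 10 nuclear members in each mimic and control library (points), with mean ± SD of 5; axes start at 0. In the top row (Cycs, Ndufaf4, Ndufaf2, Ndufb10, Uqcrh) all mimic libraries lie above all controls, and in the bottom row (Cox6a2, Ndufs8, Ndufv3, Sdhb, Sdha) all lie below.

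The 14 nuclear genes tested that were counted with complex IV include Cox7a2l, which joins complexes III and IV. Of the 14, 3 were higher (21.4%), 8 lower (57.1%) and 3 did not pass, with a median of -0.15. With library totals 3 were higher and 4 lower, against 37.3% and 26.5% of all genes. The largest change of any member was in Cox6a2 (chr7:128205435-128206387), the heart and skeletal muscle isoform of subunit 6a. It had 0.339, 0.778, 0.255, 0.464 and 0.424 FPKM in mimic libraries and 5.11, 4.66, 4.15, 5.52 and 4.27 FPKM in control libraries. The groups were far apart at a low level, 12 to 232 counts per library, where 12 counts are about 3 read pairs, and the log2 fold change was -3.43 (SE 0.243, edgeR adjusted p = 7.74e-09). Cox6a2 overlaps Itgad on the opposite strand by 70 bases, so part of its reads may belong to that gene. The other muscle isoform, Cox7a1, had 3.14, 2.37, 2.46, 1.24 and 2.15 FPKM with the mimic and 3.31, 3.6, 4.42, 3.79 and 3.71 FPKM in controls. The groups nearly touched, at mimic replicate 1 and control replicate 1 (log2 fold change -0.81, SE 0.215, edgeR adjusted p = 0.00381).

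These isoforms made up little of their subunit. Cox6a2 was 0.171 to 0.519% of the summed FPKM of Cox6a1 and Cox6a2 with the mimic and 2.22 to 3.25% in controls, and Cox7a1 was 1.35 to 3.20% of that of Cox7a1 and Cox7a2 with the mimic and 3.65 to 4.50% in controls. The widespread partners changed little: Cox6a1 averaged 155 ± 11.8 FPKM with the mimic and 166 ± 11.8 FPKM in controls, and its log2 fold change of -0.19 was not called with library totals (-0.11, adjusted p = 0.0907). Cox7a2 averaged 91.9 ± 3.15 FPKM with the mimic and 90.5 ± 4.49 FPKM in controls and did not pass. Cox4i1, which binds the regulatory nucleotides and had the highest FPKM of the nuclear complex IV members, averaged 194 ± 8.79 FPKM with the mimic and 216 ± 7.46 FPKM in controls (log2 fold change -0.25).

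Among the remaining subunits with an isoform, Cox6b1 fell, at 129.9 ± 4.54 FPKM with the mimic and 139.8 ± 4.67 FPKM in controls (log2 fold change -0.20). Cox7b fell by 0.16, at 57.0 ± 4.03 FPKM with the mimic and 60.0 ± 3.94 FPKM in controls, a call that was lost with library totals. Cox8a averaged 179 ± 8.46 FPKM with the mimic and 173 ± 11.5 FPKM in controls and did not pass. The 2 largest rises were small: Cox7a2l, which joins complexes III and IV into a supercomplex, averaged 92.9 ± 4.36 FPKM with the mimic and 80.1 ± 2.93 FPKM in controls (log2 fold change 0.12), and Ndufa4, named for complex I but a subunit of complex IV, averaged 49.2 ± 3.36 FPKM with the mimic and 41.8 ± 2.77 FPKM in controls (0.14). The call of Ndufa4 was lost when any of 8 libraries was left out (edgeR adjusted p = 0.0536 to 0.171), and that of the third rise, Cox5a, when any of 7 was (0.0782 to 0.283). Only 1 of the 14 was higher without mimic replicate 1 or 2 or control replicate 1, 2, 4 or 5.

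Of the 17 nuclear genes of ATP synthase, 2 were higher (11.8%), 9 lower (52.9%) and 6 did not pass. Their median was -0.092, beside -0.0021 over all genes. With limma on log2(FPKM + 1) it was 0.0027, beside 0.092 over all genes. Subunit c, which forms the rotating ring, is made from 3 genes that differ in the leader removed on import and give the same mature protein. Atp5g2 had 73.1, 62.5, 64.1, 63.0 and 65.6 FPKM in mimic libraries and 81.1, 82.9, 86.7, 78.1 and 74.7 FPKM in control libraries. It was lower in every mimic library, and the log2 fold change stood at -0.39 (SE 0.0494, edgeR adjusted p = 5.09e-06). Atp5g3 had 105, 98.7, 99.5, 98.3 and 101 FPKM with the mimic and 96.1, 87.6, 102, 93.0 and 92.1 FPKM in controls. Its groups overlapped, and it did not pass (log2 fold change 0.00, adjusted p = 0.969).

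The third gene, Atp5g1, averaged 12.3 ± 0.882 FPKM with the mimic and 13.7 ± 0.768 FPKM in controls, a log2 fold change of -0.25. Of the summed FPKM of the 3 genes, Atp5g3 held 55.4 to 57.1% with the mimic and 47.7 to 51.3% in controls, and Atp5g2 36.0 to 38.5% with the mimic and 41.6 to 45.1% in controls. Neither of these shares overlapped between the groups, while that of Atp5g1 did. In the soluble part of the enzyme, Atp5c1, the gamma subunit of the central stalk, fell to 111 ± 2.88 FPKM with the mimic against 127 ± 4.24 FPKM in controls (log2 fold change -0.28), and Atp5d, the delta subunit of that stalk, rose to 77.6 ± 3.90 FPKM against 64.7 ± 3.45 FPKM in controls (0.17). Atp5l, a subunit of the membrane part, averaged 14.6 ± 0.515 FPKM with the mimic and 12.7 ± 0.476 FPKM in controls (0.12), a call lost without control replicate 2 (0.08, edgeR adjusted p = 0.0938) and with offsets for gene length (0.08, edgeR adjusted p = 0.0856).

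**Figure D5:**
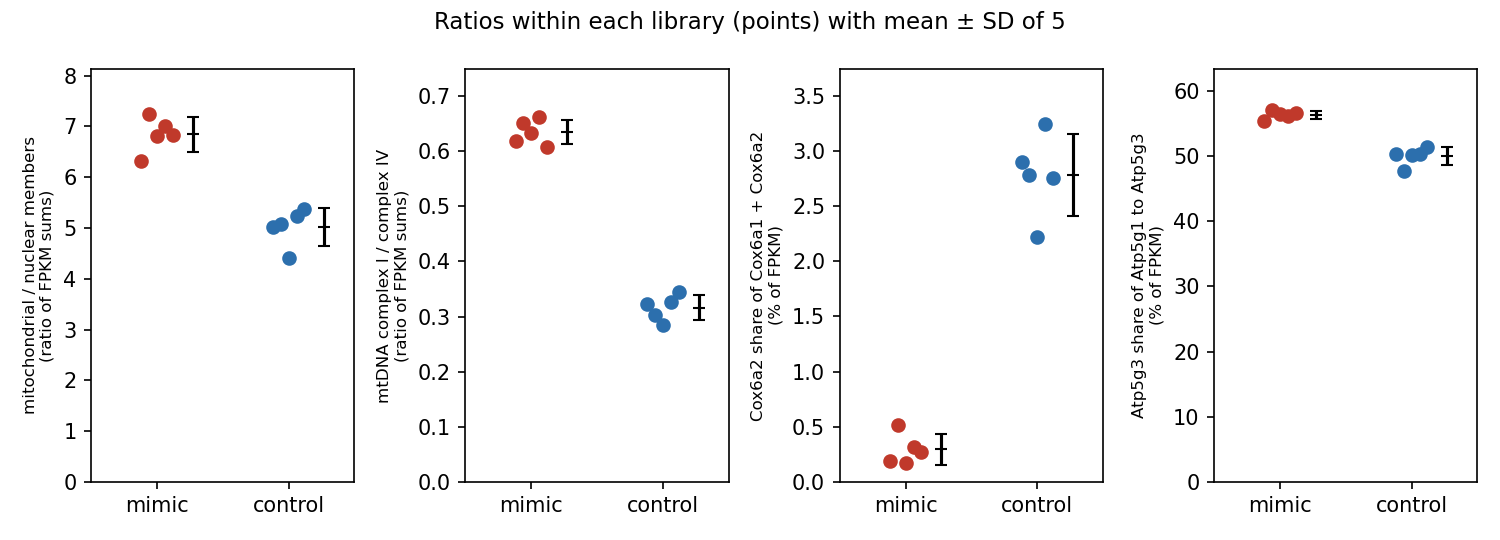
Ratios within each library (points) with mean ± SD of 5: the summed FPKM of mitochondrial over nuclear members, of mitochondrial complex I over complex IV genes, the share of Cox6a2 in subunit 6a and the share of Atp5g3 in subunit c. The mimic and control libraries are apart in all 4 panels, the mimic above except for Cox6a2.

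Factors that lie outside the naming rule were taken from 3 lists set up for this pathway. Of 43 tested assembly factors of complexes I to V, 14 were higher (32.6%) and 13 lower (30.2%), with a median of 0.053. These shares are close to the 31.7% higher and 31.5% lower of all genes tested. Sco2, a copper chaperone of complex IV, averaged 8.34 ± 0.680 FPKM with the mimic and 4.68 ± 0.543 FPKM in controls (log2 fold change 0.74), and Sdhaf1, which helps place the iron-sulfur clusters of Sdhb, 6.13 ± 0.612 FPKM with the mimic and 3.48 ± 0.443 FPKM in controls (0.73). Ecsit and Acad9, partners in the assembly of the membrane arm of complex I, were lower, with log2 fold changes of -0.51 and -0.41.

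Of 28 genes for the copying, transcription and RNA handling of mitochondrial DNA, 10 were higher (35.7%) and 9 lower (32.1%), also near the shares of all genes, with a median of 0.053. Polg, the catalytic subunit of the mitochondrial DNA polymerase, averaged 9.13 ± 0.338 FPKM with the mimic and 5.63 ± 0.331 FPKM in controls (log2 fold change 0.61, edgeR adjusted p = 3.19e-09). Fastkd5, needed to cut precursor RNA at junctions without a transfer RNA, averaged 8.40 ± 0.904 FPKM with the mimic and 5.08 ± 0.773 FPKM in controls (0.63). Tefm, the elongation factor of mitochondrial transcription, was lower, at 9.08 ± 0.444 FPKM with the mimic and 11.1 ± 0.696 FPKM in controls (-0.38), as was Hsd17b10, a subunit of mitochondrial RNase P, at 75.6 ± 3.25 and, in controls, 84.3 ± 2.38 FPKM (-0.25).

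Of 14 nuclear regulators of respiratory genes tested, 4 were higher and 4 lower (28.6% each, near the shares of all genes), with a median of 0.050. Without control replicate 1 or 5, 2 were higher. Pprc1, a coactivator of NRF1, averaged 15.8 ± 0.889 FPKM with the mimic and 10.9 ± 0.854 FPKM in controls (log2 fold change 0.45), and Gabpb2, a partner of the ETS factor Gabpa, 7.40 ± 0.449 FPKM with the mimic and 6.10 ± 0.255 FPKM in controls (0.19). Ppard, a fatty acid receptor, averaged 6.99 ± 0.286 FPKM with the mimic and 8.45 ± 0.247 FPKM in controls (-0.36). Esrrg, an orphan nuclear receptor, was low throughout, at 0.0535 ± 0.0265 FPKM with the mimic and 0.308 ± 0.0345 FPKM in controls (-2.57, SE 0.345). It rested on 111 counts over the 5 mimic and 604 over the 5 control libraries, and the lowest mimic library had 4 counts, under the floor of 12. Myc, a transcription factor of cell growth, did not pass over all libraries (0.36, edgeR adjusted p = 0.768). It had 2.60 FPKM in mimic replicate 1, 0.0168 to 0.0871 FPKM in the other mimic libraries and 0.236 to 0.536 FPKM in controls, and without mimic replicate 1 it was lower (-3.32, edgeR adjusted p = 1.18e-05). With library totals 37.3% of all genes tested were higher and 26.5% lower. The counts were then 20 higher (46.5%) and 9 lower (20.9%) among the assembly factors. They were 13 higher (46.4%) and 7 lower (25%) among the genes for mitochondrial DNA and RNA, and 7 higher (50%) and 3 lower (21.4%) among the regulators.

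Promoters were searched for the motifs of 3 factors known to bind genes of this pathway, in the 250 bases before the transcription starts that RefSeq lists for 76 of the 92 nuclear members (GRCm38.p6, 81 windows). The NRF1 motif GCATGCGC, on either strand, was in 12.3% of the members' windows and 2.26% of the 32851 windows of all genes. The ETS motif CCGGAAG was in 17.3% of the members' windows and 6.91% of all windows, and the YY1 motif ATGGCGG in 7.41% and 2.21%. None of these strings contains another. The NRF1 motif was in 3 of 14 windows of members called higher, 5 of 34 windows of members called lower and 2 of 31 windows of members that did not pass. For the ETS motif these were 3 of 14, 4 of 34 and 7 of 31 windows, and for the YY1 motif 0 of 14, 1 of 34 and 5 of 31, in the same order. Members with a match to the NRF1 motif that were called lower included Sdhb and Atp5g2.

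Windows are shown for Ndufaf4 and Cycs, the largest nuclear rises that hold the NRF1 motif, and for Ndufs8, the largest fall in complex I, which holds none of the 3; they were chosen after their values were seen. Capitals mark the motif. In Ndufaf4 (chr4:24897833-24898082, forward strand) it starts at -113 on one strand and -111 on the other, and in Cycs (chr6:50566570-50566819, reverse strand) at -60, counted from the transcription start. That of Ndufs8 is chr19:3912775-3913024, reverse strand. A match is a description of the letters, and binding was not measured.
Ndufaf4: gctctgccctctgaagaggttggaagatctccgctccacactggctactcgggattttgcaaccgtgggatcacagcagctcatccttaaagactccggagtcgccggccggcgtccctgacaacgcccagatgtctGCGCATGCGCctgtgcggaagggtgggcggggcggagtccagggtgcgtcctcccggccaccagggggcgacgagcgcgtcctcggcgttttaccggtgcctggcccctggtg
Cycs: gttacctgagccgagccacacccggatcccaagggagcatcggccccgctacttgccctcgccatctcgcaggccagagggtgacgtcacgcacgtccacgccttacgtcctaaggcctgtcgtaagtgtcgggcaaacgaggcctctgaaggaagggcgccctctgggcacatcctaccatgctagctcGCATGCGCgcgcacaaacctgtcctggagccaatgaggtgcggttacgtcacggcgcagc
Ndufs8: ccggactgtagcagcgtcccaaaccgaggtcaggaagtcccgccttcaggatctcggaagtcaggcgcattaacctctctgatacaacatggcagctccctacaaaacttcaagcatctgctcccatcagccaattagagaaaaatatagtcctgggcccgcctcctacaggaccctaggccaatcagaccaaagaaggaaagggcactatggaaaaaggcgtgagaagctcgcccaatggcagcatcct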

How the data were processed

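The 10 RNA libraries of primary mouse microglia were grouped by the treatment label and numbered by title. They were strand-marked, paired-end libraries of oligo(dT)-selected RNA, per the labels' protocols. For each gene and library the authors deposited 2 numbers, an expected count and an FPKM level. The submitters' processing notes name the build GRCm39 and the tools StringTie 2.1.6, HISAT2 2.2.1, cutadapt 1.9, edgeR and DESeq2, with no role for each. Neither the annotation nor the use of strand in counting is stated. All 20 value columns matched a library. Start and end of 90.8% of the gene models were identical to GENCODE M21, a GRCm38 annotation, as were those of 75.2% of the members, so coordinates are given as GRCm38. The deposited counts were whole numbers in which 1 read pair was worth about 4 counts, and they were used as they stood. Gene models that overlap another gene of the table, as 37 nuclear members do, may share reads with it.

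Counts were filtered with filterByExpr, scaled by TMM and tested with glmQLFit and glmQLFTest of edgeR 4.0.16 (R 4.3.3) over all genes, with no covariate and a Benjamini-Hochberg threshold of 0.05. Standard errors were taken as the absolute log2 fold change over the square root of F. Alternatives were DESeq2 size factors, library totals, TMM without mitochondrial rows, other filters on low values, DESeq2 1.42.0, limma 3.58.1 on log2(FPKM + 1) and log2(FPKM + 0.1), counts divided by 4, offsets for gene length, the replicate number as a block and leaving out each library. Gene length was the relative length implied by each gene's counts and FPKM, not an annotated one. The test scripts were checked on simulated counts. Named were all mitochondrial members, the Sdh genes, Cyc1 and Cycs, the 2 largest called rises and falls per nuclear class with a mean FPKM of at least 1, members with an isoform, and up to 2 rises and 2 falls with the smallest p in each of 3 further lists; other genes named were chosen after their values were seen. The members and lists were chosen with earlier results of these data known. Reads carried no molecular identifiers, so a floor of 3 read pairs, or 12 counts, covers counting error alone. The mature sequence of the microRNA and the values of some genes that the rule names are not reported here.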

Additional observations from a re-analysis of the deposited data

Results flagged for a closer look

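Among 180 sets of 5 libraries examined, 12 had 1 library far from the other 4 by Dixon's test. By chance alone this test marks about 1 in 20 of all sets examined. In control replicate 3, mt-Nd4l stood at 370.0 FPKM, where the other controls had 438 to 456 FPKM, and mt-Nd1 at 1304 FPKM, where they had 1578 to 1685 FPKM. In mimic replicate 1, Atp5g2 stood at 73.1 FPKM (62.5 to 65.6 FPKM in the other mimic libraries), Cox6a1 at 175 FPKM (147 to 155 FPKM), Pprc1 at 14.2 FPKM (15.9 to 16.3 FPKM), Myc at 2.60 FPKM (0.0168 to 0.0871 FPKM) and the sum of the nuclear members at 5021 FPKM (4735 to 4763 FPKM). Acad9 was at 4.76 FPKM in mimic replicate 2 (5.15 to 5.28 FPKM in the others) and Tefm at 9.87 FPKM in mimic replicate 3 (8.82 to 8.96 FPKM). In control replicate 4, Pprc1 was at 9.35 FPKM (11.1 to 11.4 FPKM in the others). Cox6b2 was listed at 0.0521 FPKM in control replicate 4 and Cox8b at 0.0937 FPKM in control replicate 5, both 0 in all other control libraries. With the other 4 libraries at 0, the test marks any value above 0.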

How the results depend on the processing

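Leaving out 1 library at a time gave 20 to 24 members higher and 41 to 48 lower, a median of -0.16 to -0.10 over the nuclear and 0.74 to 0.87 over the mitochondrial members. At 1.5-fold or more, 10 members were higher and 2 lower. With library totals the medians were -0.037 (nuclear members), -0.035 (complex I), -0.35 (II), 0.049 (III, turned), -0.066 (IV) and -0.010 (V). With limma on log2(FPKM + 1) they were -0.025, -0.025, -0.34, 0.062 (turned), -0.050 and 0.0033 (turned), and on log2(FPKM + 0.1) -0.0274, -0.0274, -0.34, 0.063 (turned), -0.052 and 0.0040 (turned), in the same order, and 0.92 over the mitochondrial members. Over all genes of each fit the median was 0.075 with library totals and 0.092 with limma on log2(FPKM + 1). The medians of complexes III and V that turned in these fits stayed below those values. With length offsets complex III was at 0.034, above the 0.00069 of all genes. All members called higher stayed higher with library totals and with limma, while 14 of the 45 called lower were not called with totals, and none was called the other way; the totals and FPKM scales are offset from TMM by construction. Named genes that turned sign were uncalled in the main test: Cox7a2 (0.0088 with totals, 0.022 with both limma fits), Cox8a (0.041 with totals, 0.056 with both limma fits, 0.028 with length offsets), Cyc1 (-0.000736 with no filter, -0.010 at a mean FPKM of at least 1, -0.0288 to 0.0237 on leaving out a library) and Atp5g3 (-0.000238 with DESeq2 size factors, -0.00430 with no filter, -0.014 at a mean FPKM of at least 1, -0.0021 with counts divided by 4, -0.0419 to 0.0215 on leaving out a library).

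With the replicate number as a block, 23 members were higher and 44 lower, beside 24 and 45 in the main test. The titles do not say that the numbers pair libraries, so they were not taken as pairs. Deviations from the group mean in libraries that share a number had correlations of -0.0087 to 0.062. For mimic replicates 3 and 5 the control of the same number had the highest correlation, and for mimic replicates 1, 2 and 4 another control had.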

Other observations

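Transfer RNA genes of mitochondrial DNA, which lie between the protein genes, were also tested. Of 16, 6 were higher (37.5%), 2 lower (12.5%) and 8 did not pass, against 31.7% higher and 31.5% lower of all genes tested. Without mimic replicate 2 or control replicate 3 only 3 were higher. Those with over 1000 counts in each group, a limit set after the values were seen, were mt-Te, mt-Tl1, mt-Ts1 and mt-Tp. Such genes are short and lie next to other mitochondrial genes, and mt-Ts1 shares 3 bases with mt-Co1. Use of strand in counting was not stated, so reads of neighbouring transcripts or uncut precursors cannot be told apart from those of transfer RNA. The row of mt-Te, between mt-Nd6 and mt-Cytb and on the strand of mt-Nd6, averaged 132 ± 6.02 FPKM with the mimic and 54.3 ± 12.1 FPKM in controls (log2 fold change 1.19, edgeR adjusted p = 1.23e-06). For mt-Tl1, between mt-Rnr2 and mt-Nd1, the means were 209 ± 7.42 FPKM with the mimic and 111 ± 12.5 FPKM in controls (0.83, edgeR adjusted p = 1.68e-07). mt-Ts1, next to mt-Co1 on the opposite strand, averaged 316 ± 14.1 FPKM with the mimic and 355 ± 22.3 FPKM in controls (-0.26, edgeR adjusted p = 0.00128), and mt-Tp, after mt-Cytb on the opposite strand, 54.7 ± 6.06 FPKM with the mimic and 72.9 ± 11.1 FPKM in controls (-0.50, edgeR adjusted p = 0.00251).

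Of the factors that start transcription of mitochondrial DNA, likewise named after their values were seen, Tfam averaged 11.6 ± 0.476 FPKM with the mimic and 8.99 ± 0.634 FPKM in controls (log2 fold change 0.28, edgeR adjusted p = 0.000144). Tfb2m averaged 10.6 ± 0.778 FPKM with the mimic and 8.06 ± 0.327 FPKM in controls (0.31), and the polymerase Polrmt 8.80 ± 0.509 FPKM with the mimic and 7.51 ± 0.385 FPKM in controls (0.14, edgeR adjusted p = 0.0281). The call of Polrmt was lost when any of 7 libraries was left out (adjusted p = 0.0508 to 0.110) and with no filter on low counts (0.0581). The mimic and control libraries did not overlap in any of these 3 genes, nor did they in 52.2% of all genes tested. Of the same list, Tfb1m was lower, with overlapping groups (-0.33, edgeR adjusted p = 0.00369), and so was Tefm (-0.38). Over the 28 genes of that list, 10 were higher and 9 lower, near the shares of all genes.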
